A study of Mus musculus with 4 samples.

Results

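The glycolysis and hypoxia genes described here are 33 mouse genes taken from a fixed list of symbols: the enzymes of glycolysis, the lactate dehydrogenases, the main glucose and lactate carriers, the kinase Pdk1, and the oxygen-sensing factor Hif1a with its regulators and targets. All 33 were found among the 34097 genes of the count files, 32 by symbol and Ero1l by its gene identifier, under the newer symbol Ero1a. Their unique molecular identifiers (UMIs, each standing for 1 captured transcript) were read in single cells of mouse hearts collected on day 5 after transplantation. The libraries were 3 from allogeneic hearts (replicates 1, 2 and 3), placed in genetically different recipients, and 1 from an isogeneic heart, which the labels number 2. The labels give no strain, age, sex or drug treatment for either group. They do not say whether each replicate is its own animal, so a p-value here covers the spread among the deposited libraries, part or all of which may be technical.

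Glycolysis turns glucose into pyruvate in the cytosol and yields energy without oxygen. Lactate dehydrogenase then turns pyruvate into lactate, which monocarboxylate carriers export. Where oxygen is low, the prolyl hydroxylases encoded by Egln1 and Egln3 stop marking the HIF1A protein for destruction, and HIF1A switches on many of the genes listed here; in activated myeloid cells, inflammatory signals can raise Hif1a itself. Nos2, induced in inflammatory monocytes and macrophages of rodents, makes nitric oxide, and such cells are known for a high glycolytic rate.

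Cells were sorted into classes by marker genes, and each class name below means the cells that passed that marker rule. Nos2 monocytes carried at least 1 UMI of Nos2 together with monocyte markers and little C1q, while C1q macrophages carried high levels of the complement genes C1qa, C1qb and C1qc. The C1q limits were set after the levels of Hk2 and Ldha along C1q had been seen. Tests of Hk2 and Ldha in classes split by C1q are thus not independent of these limits. The isogeneic library held 1 Nos2 monocyte and 2 dividing T cells, so these classes were compared inside the allografts only. C1q macrophages numbered 1171, 1565 and 349 cells in allogeneic replicates 1, 2 and 3 and 1807 in the isogeneic library. Nos2 monocytes numbered 360, 651 and 160 cells, and dividing T cells 611, 878 and 144. Neutrophils had the fewest UMIs of the 8 classes in each allograft, with 60, 98 and 352 cells and median depths of 2329, 2195 and 2237 UMIs per cell. The stroma is represented by fibroblasts, with 50, 136 and 1987 cells in the allografts and 4866 in the isogeneic heart. Between 64.2% and 81.4% of the kept cells of a library entered a class. Replicate 3 stood apart from the other allografts in composition, and results that rest on it are given with and without it. The 4 libraries held 51054446 to 100038951 UMIs, and of the UMIs of the kept cells the 33 genes took 0.993%, 0.931% and 0.644% in the allografts and 0.520% in the isogeneic heart. Library pairs shared 8 to 30 cell barcodes. The 8 heart muscle markers, checked against the labelled tissue, summed to 9.59 to 278 UMIs per 1000000 in the allograft classes, none of which is heart muscle.

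Levels are given as counts per 1000000 (CPM), the UMIs of a gene per 1000000 UMIs of that class in that library. Summed over the 33 genes, Nos2 monocytes were at 13991, 12839 and 12789 CPM in replicates 1, 2 and 3. C1q macrophages followed at 11568, 11141 and 8836 CPM, and monocytes without Nos2 at 10942, 10689 and 9146 CPM. Each Nos2 monocyte value lay above every value of the other classes, whereas the next pair overlapped. Dividing T cells were at 7776, 8146 and 8180 CPM and non-dividing T cells at 7430, 7102 and 6206 CPM, without overlap between them. Fibroblasts (7074, 6099 and 5354 CPM), endothelial cells (7314, 5884 and 4944 CPM) and neutrophils (5951, 6521 and 4065 CPM) overlapped one another. A class sum cannot tell more transcripts per cell from more expressing cells. It also rests mostly on abundant enzymes. In Nos2 monocytes of the allografts Gapdh, Aldoa and Pkm averaged 3042, 1418 and 1409 CPM, against 145 CPM for Slc2a1 and 88.2 CPM for Bnip3. The sum thus says little about carriers and hypoxia targets.

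**Figure D1:**
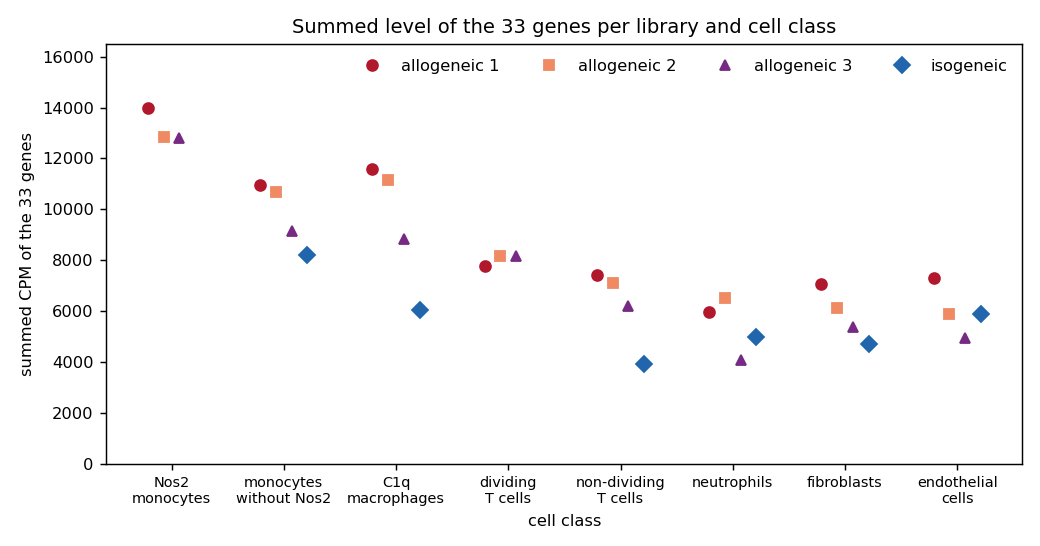
Summed CPM of the 33 genes (vertical axis) by cell class (horizontal axis), 1 point per library, with classes of under 20 cells in a library left out. Nos2 monocytes sit at 12789 to 13991 CPM, and isogeneic C1q macrophages at 6054 CPM lie below the 3 allogeneic libraries at 8836 to 11568 CPM.

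**Figure D2:**
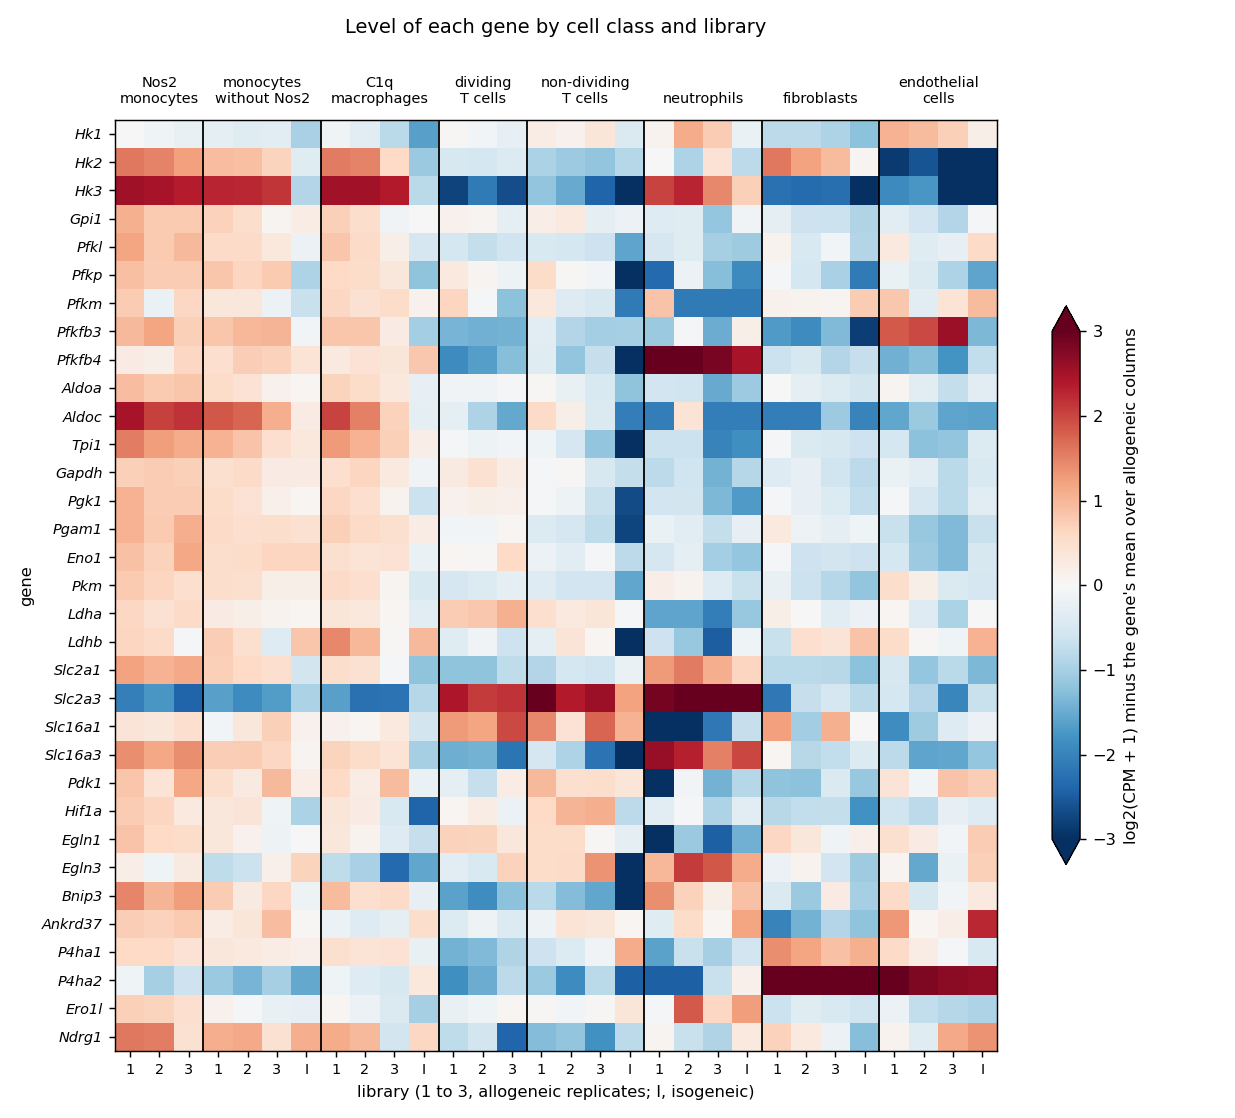
Level of each of the 33 genes (rows) in each class and library (columns), as log2(CPM + 1) minus the gene's mean over the allogeneic columns, with colours cut at 3 in either direction. Most rows are higher in the 3 myeloid classes at the left, while Slc2a3, Pfkfb4 and P4ha2 are high in T cells and neutrophils, neutrophils, and fibroblasts and endothelial cells.

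The first comparison asked how Nos2 monocytes differ from C1q macrophages of the same allografts. Slc2a1, the widely used glucose carrier GLUT1, and Egln1, the main HIF prolyl hydroxylase, were higher in Nos2 monocytes. These were 2 of 33 genes tested and none was lower, where 0.721% of all genes tested were higher and 0.919% lower. The median log2 difference of the 33 genes was 0.26, against -0.05 for all genes. In the same direction in all 3 libraries, 27 of the 33 were higher (24.6% of all genes) and 2 lower (22.2%). When only the 2 classes compared entered the fit, which then has its own estimate of the spread (median SE of the 32 genes 0.0869, against 0.203 in the fit of all classes), 22 of 32 genes tested were higher and 1, Ldhb, lower, against 8.82% and 7.42% of all genes. The call of single genes in this comparison thus depended on the classes fitted together. Without replicate 1, or without replicate 2, none of the 33 passed, and the share of all genes in those fits is not given here. Without replicate 3, 9 did, where 7.09% of all genes passed.

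Slc2a1 was read at 153, 136 and 146 CPM in Nos2 monocytes and at 94.7, 91.3 and 64.1 CPM in C1q macrophages. The lowest Nos2 monocyte value lay above the highest C1q macrophage value (log2 difference 0.73, SE 0.18, edgeR adjusted p = 0.0367). Egln1 was at 126, 106 and 103 CPM against 88.1, 74.9 and 52.6 CPM, again without overlap (0.60, SE 0.15, edgeR adjusted p = 0.0433). Slc16a3, the lactate exporter MCT4, was at 168, 141 and 169 CPM against 101, 92.5 and 84.2 CPM, and its difference of 0.74 (SE 0.21) had an edgeR adjusted p = 0.0856. In the fit of the 2 classes alone it had an adjusted p = 0.00028. Among hypoxia targets, Ankrd37 stood at 31.3, 30.1 and 32.5 CPM against 16.1, 13.6 and 15 CPM, a difference of 1.01 (SE 0.27, edgeR adjusted p = 0.0582). It shares its span with Ufsp2 on the opposite strand, and whether the counting used strand is not given, so reads of the pair cannot be told apart. Bnip3, a mitophagy receptor, and Ero1l, an oxidase of protein folding, differed by 0.53 (SE 0.21) and 0.75 (SE 0.22), with edgeR adjusted p = 0.283 and 0.103. Hk2 and Hk3 did not follow: Hk2 was at 315, 294 and 245 CPM against 310, 292 and 160 CPM, and Hk3 at 258, 247 and 230 CPM against 256, 254 and 231 CPM, with overlapping groups.

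The border between these classes is not sharp in Nos2 itself. A Nos2 UMI was also found in 51.9%, 48.1% and 31.5% of the C1q macrophages of replicates 1, 2 and 3, at median depths of 11315, 9151 and 9537 UMIs per cell. In dividing T cells, which are not known to use this gene, the shares were 4.58%, 6.26% and 0.694% at median depths of 14603, 10586 and 13994 UMIs. In fibroblasts they were 34%, 36.8% and 16.1% at 19649, 10674 and 7299 UMIs, and in endothelial cells 26.8%, 21.4% and 12% at 7925, 5252 and 2362 UMIs. When C1q macrophages with a Nos2 UMI were left out, an alternative added after the data were seen, 9 of the 33 genes were higher in Nos2 monocytes and none lower, where 2.26% of all genes passed. Those 9 were Slc2a1 (0.98), Egln1 (0.82), Slc16a3 (1.08), Ero1l (1.09), Ankrd37 (1.14), Egln3 (1.69), Bnip3 (0.81), Pgk1 (0.63) and Pfkl (0.62), given as log2 differences. This alternative left 563, 812 and 239 C1q macrophages with 5007725, 6336437 and 2157084 UMIs in all. Before, 1171, 1565 and 349 cells had held 13824313, 14653920 and 3478199 UMIs. A Nos2 UMI is more likely to be found in a deep cell, and the part of depth in these calls was not tested.

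Promoters of 3 of these genes are shown, those of the called pair Slc2a1 and Egln1 and that of the lactate exporter Slc16a3, which was picked after its values were seen, with the core letters of the HIF response element in capitals (ACGTG or GCGTG, read on either strand, so that CACGT and CACGC mark the minus strand). They are RefSeq sequences of build GRCm38.p6, 300 bases around an annotated start, written 5′ to 3′ along the gene.
Slc2a1 promoter, chr4:119108495-119108794, plus strand: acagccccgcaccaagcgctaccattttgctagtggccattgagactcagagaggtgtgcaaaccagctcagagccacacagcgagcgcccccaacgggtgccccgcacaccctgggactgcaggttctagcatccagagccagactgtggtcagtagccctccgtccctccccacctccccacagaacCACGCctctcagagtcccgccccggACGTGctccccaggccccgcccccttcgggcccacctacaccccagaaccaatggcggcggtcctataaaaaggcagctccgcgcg
Egln1 promoter, chr8:124949205-124949504, minus strand: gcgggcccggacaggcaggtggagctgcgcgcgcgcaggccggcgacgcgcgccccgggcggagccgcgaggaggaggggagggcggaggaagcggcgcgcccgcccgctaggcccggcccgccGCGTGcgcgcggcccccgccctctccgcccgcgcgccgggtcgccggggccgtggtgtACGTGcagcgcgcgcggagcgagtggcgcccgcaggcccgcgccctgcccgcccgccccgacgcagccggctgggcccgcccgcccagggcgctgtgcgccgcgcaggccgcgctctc
Slc16a3 promoter, chr11:120948817-120949116, plus strand: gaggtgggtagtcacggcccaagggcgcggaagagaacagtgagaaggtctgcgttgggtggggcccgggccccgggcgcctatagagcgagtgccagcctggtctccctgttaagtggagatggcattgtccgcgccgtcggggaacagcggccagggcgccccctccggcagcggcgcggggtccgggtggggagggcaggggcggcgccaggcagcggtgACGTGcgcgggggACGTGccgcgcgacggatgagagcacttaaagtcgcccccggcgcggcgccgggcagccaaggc
Each of the 3 holds ACGTG at least once. Of the 33 genes, 31 had a promoter in the table, Slc2a3 and Ndrg1 being the other two, and 23 of those 31 held ACGTG, 21 held GCGTG and 29 held at least 1 of them. Counted per promoter, ACGTG was found in 59.1% of the 44 promoters of the listed genes and in 19.6% of all 32851 promoters, and GCGTG in 59.1% and 32.4%. A palindrome CACGTG, as in many sites of other factors, also counts as ACGTG. Base composition was not matched, and a match is only a match of letters. Part of the list was chosen as targets of HIF1A, so an excess of these letters over all promoters is no result of these data.

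Against monocytes of the same grafts without a Nos2 UMI, most of the 33 genes leaned to the Nos2 monocytes, yet none passed in the fit of all classes. With edgeR 0 of 33 passed, where 0.0515% of all genes did, 16 had an unadjusted p under 0.05, and DESeq2 called 2 (Egln1, 0.62, and Gpi1, 0.51). The share of all genes was not computed for unadjusted p in any comparison. For DESeq2 it is not given in this comparison, so its 2 calls stand without a background. The median log2 difference of the 33 genes was 0.43, against -0.01 for all genes, and 25 were higher in all 3 libraries (12.7% of all genes) with 1 lower (24.6%). In the fit of these 2 classes alone, 21 of 31 genes tested were higher and none lower, against 3.84% and 2.14% of all genes. Replicate 3 weighed on this comparison, since without it 9 genes passed in the fit of all classes, where 1.56% of all genes did.

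The lean was seen at steps from the entry to the exit of the pathway, though not at each step. At its entry Hk2 was at 315, 294 and 245 CPM in Nos2 monocytes and at 200, 198 and 166 CPM in monocytes without Nos2, groups that did not overlap (0.66, SE 0.26, edgeR adjusted p = 0.696, and 7e-05 in the fit of both classes alone). In the middle, Aldoa, the aldolase that splits the sugar, was at 1494, 1359 and 1403 CPM against 1152, 1054 and 849 CPM. Tpi1, which interconverts the pair of sugar phosphates that aldolase makes, was at 1080, 890 and 804 CPM against 769, 671 and 528 CPM. At the exit, Ldha was at 1054, 940 and 1021 CPM against 812, 777 and 735 CPM, and Slc16a3 at 168, 141 and 169 CPM against 107, 108 and 97.7 CPM. For Aldoa, Tpi1, Ldha and Slc16a3 the edgeR adjusted p of the fit of all classes was 0.316, 0.411, 0.733 and 0.393. Pfkfb4, whose product helps set the rate of phosphofructokinase, went the other way, with 13.2, 12.5 and 17.2 CPM against 16.0, 18.9 and 18.2 CPM. Pfkp, a phosphofructokinase, was at 271, 246 and 245 CPM against 256, 227 and 251 CPM. Pfkfb3 was at 151, 173 and 126 CPM against 137, 152 and 156 CPM. For both genes the groups overlapped and replicate 3 went the other way. Finding a Nos2 UMI is more likely in a deep cell, and median depths were 11397, 8380 and 8895 UMIs against 9365, 7209 and 7296. Among cells of at least 5000 UMIs, an alternative added after the data were seen, the median difference was 0.41. This floor does not match the depth of the classes above it, and the part of depth in the lean was not tested.

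**Figure D3:**
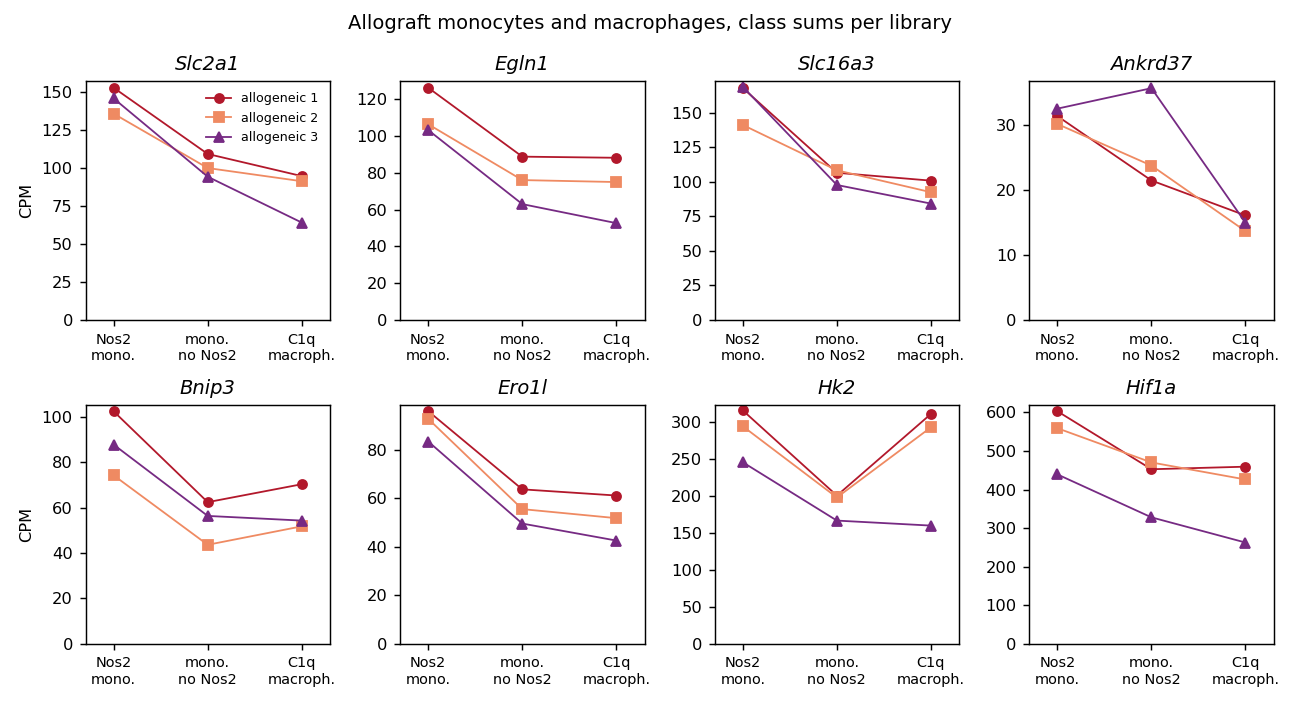
CPM of 8 of the genes (panels, vertical axes from 0) in Nos2 monocytes, monocytes without Nos2 and C1q macrophages of the 3 allogeneic libraries, joined by library. Slc2a1, Egln1, Slc16a3, Bnip3 and Ero1l are highest in Nos2 monocytes in each library, while Hk2 is lowest in the monocytes without Nos2 in replicates 1 and 2.

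Hif1a itself was at 603, 559 and 439 CPM in Nos2 monocytes, 453, 470 and 328 CPM in monocytes without Nos2 and 459, 426 and 262 CPM in C1q macrophages. Replicate 3 was the lowest in each class. The antisense gene Gm15283 overlaps Hif1a on the opposite strand, and its counts moved across classes too, from 20.5 CPM in the endothelial cells of replicate 2 to 244 CPM in the non-dividing T cells of replicate 3. Without strand the reads of the pair cannot be told apart, which holds for each Hif1a value given here. The same doubt touches Pfkp, with 22602 UMIs beside 4083 of Pitrm1 on the opposite strand, Tpi1, with 81938 beside 4959 of Spsb2, and Pfkm, with 944 beside 5066 of Senp1.

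Dividing T cells were compared with T cells that carried none of the 8 division markers. Tpi1, Gapdh, Pgk1, Pgam1 and Ldha were higher in dividing T cells, while Pdk1, Hif1a, P4ha1 and Pfkfb4 were lower. In the fit of all classes 5 of 33 genes were higher, against 10.9% of all genes, and 4 lower, against 7.03%. The median over the 33 was 0.03, against -0.01 for all genes. Gapdh, which makes the first NADH of the pathway, was at 2207, 2515 and 2148 CPM in dividing and 1754, 1871 and 1306 CPM in non-dividing T cells (0.62, SE 0.16, edgeR adjusted p = 0.00767). Pgam1, a phosphoglycerate mutase, was at 367, 369 and 407 CPM against 292, 272 and 230 CPM (0.66, SE 0.17, edgeR adjusted p = 0.00721). Neither gene's groups overlapped. Tpi1 (0.64), Pgk1 (0.58) and Ldha (0.63) were the other three higher genes, with edgeR adjusted p = 0.0202, 0.0181 and 0.0212. Tpi1 was at 357, 337 and 352 CPM against 337, 263 and 162 CPM, groups that overlapped, and Pgk1 at 406, 420 and 414 CPM against 358, 335 and 232 CPM, without overlap. Ldha was at 1155, 1195 and 1431 CPM against 972, 838 and 881 CPM, and its level in dividing T cells was above every other class in each allograft.

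On the other side, Pdk1, the kinase that shuts the pyruvate dehydrogenase complex, was at 11.7, 8.55 and 17.0 CPM in dividing and 29.2, 20.7 and 21.2 CPM in non-dividing T cells (-0.91, SE 0.22, edgeR adjusted p = 0.00548). Hif1a was at 376, 415 and 316 CPM against 538, 728 and 761 CPM (-0.75, SE 0.22, edgeR adjusted p = 0.0186). Neither gene's groups overlapped. P4ha1, a collagen prolyl hydroxylase (-0.74), and Pfkfb4 (-0.98) were also lower, with edgeR adjusted p = 0.0137 and 0.0358. P4ha1 was at 31.6, 34.2 and 46.2 CPM against 56.2, 65.3 and 80.5 CPM. Pfkfb4 rested on few transcripts, at 2.24, 2.82 and 3.92 CPM against 8.24, 4.23 and 6.36 CPM. Slc2a3, the high-affinity glucose carrier GLUT3, was at 45.5, 35.8 and 37.9 CPM against 82.4, 44.2 and 49.8 CPM and did not pass.

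The T cell calls were sensitive to scaling and to single libraries. With library totals in place of TMM factors the median of all genes moved from -0.01 to -0.15, 2 of the 33 genes were higher (Gapdh and Pgam1) and 5 lower, and 39.9% of all called genes were higher in place of 60.9%. Without replicate 1, or without replicate 2, none of the 33 passed, and the share of all genes in those fits is not given here. Without replicate 3, 16 did, where 26.2% of all genes passed. Median depth was 14603, 10586 and 13994 UMIs in dividing and 4790, 3739 and 3339 in non-dividing T cells. The 8 monocyte and macrophage markers summed to 383, 483 and 128 CPM in dividing and 825, 832 and 172 CPM in non-dividing T cells; their part in the lower genes was not tested.

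Set against Nos2 monocytes of the same grafts, dividing T cells were lower in 26 of the 33 genes and higher in 2, where 28.6% of all genes were lower and 32.4% higher. The median of the 33 was -1.24, against 0.08 for all genes, and -1.0 against 0.31 with library totals. The higher pair were carriers: Slc2a3 (4.73, SE 0.38, edgeR adjusted p = 3.29e-10) and Slc16a1, the lactate carrier MCT1 (0.85, SE 0.28, edgeR adjusted p = 0.0119). Slc2a3 was read at 1.10, 1.57 and 0.636 CPM in Nos2 monocytes, far below the 35.8 to 45.5 CPM of dividing T cells. Slc16a1 was at 22.6, 21.2 and 37.5 CPM in dividing T cells and 11.7, 11.3 and 12.7 CPM in Nos2 monocytes. Hk3 (-5.37), Aldoc (-3.84), Slc16a3 (-3.24) and Bnip3 (-3.19) were the most strongly lower. The remaining 5 genes, Hk1, Pfkm, Ldha, Egln1 and Egln3, did not pass, and Ldha differed by only 0.10.

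Neutrophils had higher levels of 3 sugar and lactate carriers than C1q macrophages and lower levels of several mid-pathway enzymes. Relative to C1q macrophages of the same allografts, 7 of 33 genes were higher (17.4% of all genes) and 17 lower (28.9%). The median of the 33 was -0.72 and that of all genes -0.70. Scaling moved this background widely. With library totals the medians were -1.12 and -1.14, with 7 members higher and 18 lower, and with DESeq2 size factors they were -0.51 and 0.29, with 8 higher and 14 lower. The share of called genes that were higher was 37.6% with TMM factors, 25.9% with library totals and 54.8% with DESeq2. The 7 higher genes were called under each of these scalings.

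Slc2a3 was at 62.5, 91 and 67.3 CPM in neutrophils and at 1.81, 0.819 and 0.863 CPM in C1q macrophages (6.33, SE 0.40, edgeR adjusted p = 2.66e-11). Slc2a1 was at 160, 196 and 142 CPM against 94.7, 91.3 and 64.1 CPM (1.32, SE 0.21), and Slc16a3 at 389, 323 and 180 CPM against 101, 92.5 and 84.2 CPM (1.91, SE 0.23), with edgeR adjusted p = 1.73e-05 and 4.2e-07. None of these carrier groups overlapped. The other lactate carrier, Slc16a1, was at 0, 0 and 1.2 CPM against 9.62, 9.08 and 10.9 CPM and was called lower (edgeR adjusted p = 0.0204). Pfkfb4 was at 118, 118 and 85.4 CPM against 13.6, 15 and 14.4 CPM, a difference of 3.19 (SE 0.21, edgeR adjusted p = 5.53e-11). Hk1 (1.59), Ero1l (1.55) and Egln3 (3.45) completed the higher genes, Ero1l being higher in 2 of the 3 libraries. Egln3, a hydroxylase that is itself a known HIF target, was at 20.8, 45.5 and 38.5 CPM against 5.35, 4.5 and 1.15 CPM.

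Aldoa (-1.10), Tpi1, Gapdh (-1.12), Pgk1 (-0.93) and Ldha were lower by more than the median of all genes, and were called lower under each scaling. Tpi1 was at 236, 236 and 91.4 CPM against 905, 767 and 610 CPM (-1.83, SE 0.21, edgeR adjusted p = 1.68e-07) and Ldha at 229, 227 and 162 CPM against 880, 856 and 716 CPM (-1.68, SE 0.21, edgeR adjusted p = 5.23e-07). Neither gene's groups overlapped. Egln1 was at 6.94, 31.8 and 12.0 CPM against 88.1, 74.9 and 52.6 CPM (-1.64, SE 0.27). Gpi1 (-0.71), Pgam1 (-0.69) and Eno1 (-0.72) were called lower at a difference close to the median of all genes, and Pkm (-0.11) did not pass.

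Fibroblasts were lower than C1q macrophages in most genes of the pathway, and higher in the collagen hydroxylases. Lower were 23 of 33 genes (26.9% of all genes) and higher were 3 (28.6%), with a median of -0.99 against 0.03 for all genes. With library totals the latter was 0.24 and with DESeq2 size factors 0.49, the share of called genes that were higher went from 51.5% to 61.8% under both, and 21 genes were lower and 3 higher in each. P4ha2, a catalytic subunit of the collagen prolyl hydroxylase, was at 75.0, 64.8 and 71.2 CPM in fibroblasts and 3.98, 3.14 and 2.88 CPM in C1q macrophages (4.12, SE 0.24, edgeR adjusted p = 2.51e-12). P4ha1 was at 230, 198 and 160 CPM against 122, 115 and 117 CPM (0.47, SE 0.19, edgeR adjusted p = 0.0342). The third, Slc2a3, was at 0.949, 4.36 and 5.05 CPM against 1.81, 0.819 and 0.863 CPM, groups that overlapped, and it did not pass in the fit of both classes alone (adjusted p = 0.113) or without replicate 3 (0.25).

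Hk2 did not pass, at 313, 241 and 202 CPM against 310, 292 and 160 CPM, groups that overlapped (-0.25, SE 0.26, edgeR adjusted p = 0.434). Hk3 was at 8.54, 8.10 and 8.29 CPM against 256, 254 and 231 CPM (-4.98, SE 0.31), Pfkfb3 at 22.8, 19.9 and 29.7 CPM against 137, 136 and 89.7 CPM (-2.45, SE 0.25) and Pdk1 at 5.70, 5.61 and 10.4 CPM against 22.3, 16.9 and 29.0 CPM (-1.70, SE 0.22). Their edgeR adjusted p were 6.26e-12, 1.55e-08 and 5.89e-07, and none of their groups overlapped. Fibroblasts of the allografts carried RNA of monocytes and macrophages, whose 8 markers summed to 567, 545 and 853 CPM. In fibroblasts with at most 2 of those markers detected, 22 genes were lower and 3 higher.

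Many steps of the pathway can be run by more than 1 gene, and the classes divided these steps differently. The share that each paralogue held of its set's UMIs is a description of the counts, not corrected for how well each transcript is captured. Hk1, the housekeeping hexokinase, held 88.0% ± 4.78 (SD, n = 3) of hexokinase UMIs in endothelial cells and 46.9% ± 3.32 in dividing T cells, but 11.9% ± 0.303 in Nos2 monocytes. Hk3, a myeloid hexokinase, held 40.8% ± 1.47 in Nos2 monocytes, 45.0% ± 7.04 in C1q macrophages and 43.1% ± 10.7 in neutrophils, against 2.80% ± 0.493 in fibroblasts. Hk2 held 82.7% ± 2.49 in fibroblasts. Among phosphofructokinases Pfkp had the largest mean share in each class, from 59.1% to 78.7%, and Pfkm, the muscle form, had means of 1.2% to 3.03%. Between the regulatory enzymes, Pfkfb4 held 71.8% ± 8.62 in neutrophils and means of 0.998% to 21.9% in the other classes.

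Among glucose carriers, Slc2a3 held 56.0% ± 6.21 in dividing T cells, 57.6% ± 11 in non-dividing T cells and 30.7% ± 2.23 in neutrophils, and means of 0.764% to 1.58% in the 3 classes of monocytes and macrophages. Among lactate carriers, Slc16a3 held 93.0% ± 0.456 in Nos2 monocytes and 99.8% ± 0.382 in neutrophils, but 42.4% ± 14.4 in dividing T cells, where replicate 3 was at 25.9% and the other two at 49.7% and 51.8%. P4ha2 held 26.7% ± 3.57 in fibroblasts and 27.3% ± 1.32 in endothelial cells, and means of 1.33% to 2.92% in the other classes. The isogeneic heart differed in some of these shares. Its C1q macrophages gave Hk3 25.2% of hexokinase UMIs (Wilson 95% interval 22.7 to 27.9, counting error only) and Hk1 25.3% (22.8 to 28.0). In the allografts these shares were 40.2% to 53.1% and 10.0% to 11.1%. Its neutrophils gave Slc2a3 69.6% (61.4 to 76.8) of glucose carrier UMIs, against 28.1% to 32.2% in the allografts.

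**Figure D4:**
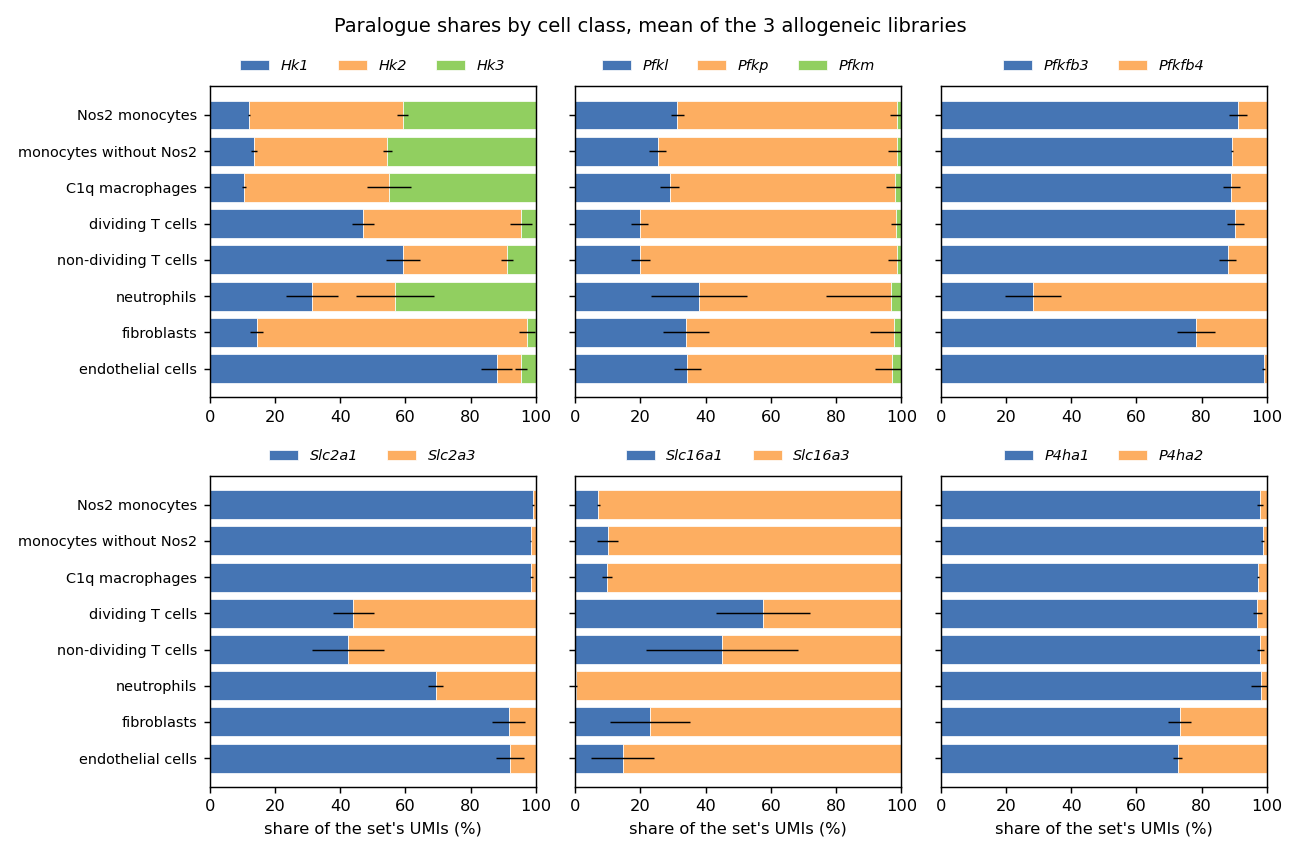
Share of each paralogue in the UMIs of its set (horizontal axis, %) by cell class, mean of the 3 allogeneic libraries; the line at the right end of a segment is the SD of that segment's gene. Hk1 fills 88.0% of the endothelial bar and Hk2 82.7% of the fibroblast bar, and Pfkfb4 fills 71.8% of the neutrophil bar.

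The comparison between graft types was fitted in C1q macrophages, endothelial cells, fibroblasts and neutrophils. The lone isogeneic library has no spread of its own and was given that of the allogeneic libraries. In C1q macrophages Slc2a1, Hk2, Hk3, Pfkp, Pfkfb3, Slc16a3 and Hif1a were higher in the allografts. Called higher were 7 of 33 genes, against 3.89% of all genes, and none lower, against 2.54%. The median of the 33 was 0.81, against -0.01 for all genes, and 25 were higher in all 3 libraries (32.1% of all genes) and 4 lower (37.8%).

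Hk3 was read at 256, 254 and 231 CPM in allogeneic and 24.5 CPM in isogeneic C1q macrophages (3.36, SE 0.23, edgeR adjusted p = 0.0069). Hk2, which binds mitochondria and is often induced, was at 310, 292 and 160 CPM against 48 CPM (2.43, SE 0.47, edgeR adjusted p = 0.0474). The allogeneic values of both genes lay well above the isogeneic one, with replicate 3 the lowest. Slc2a1 was at 94.7, 91.3 and 64.1 CPM against 27.8 CPM (1.61, SE 0.29, edgeR adjusted p = 0.0428). Pfkp, the platelet-type phosphofructokinase of the committed step, was at 218, 213 and 183 CPM against 61.7 CPM (1.75, SE 0.22, edgeR adjusted p = 0.0211). Pfkfb3, which makes the activator of that step, was at 137, 136 and 89.7 CPM against 37.0 CPM (1.73, SE 0.32, edgeR adjusted p = 0.0448). At the far end, Slc16a3 was at 101, 92.5 and 84.2 CPM against 30.9 CPM (1.61, SE 0.21, edgeR adjusted p = 0.0219). Hif1a was at 459, 426 and 262 CPM against 67.3 CPM (2.53, SE 0.41, edgeR adjusted p = 0.0325), beside its antisense partner Gm15283 at 104, 110 and 78.8 CPM against 26.2 CPM.

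The steps between lay closer to the isogeneic level. Gapdh was at 2610, 2875 and 2237 CPM against 1703 CPM, Ldha at 880, 856 and 716 CPM against 537 CPM and Pkm, the pyruvate kinase, at 1330, 1270 and 954 CPM against 654 CPM. Each of these allogeneic groups lay above the isogeneic value, and their edgeR adjusted p were 0.177, 0.151 and 0.116. Gapdh, Ldha, Pgk1, Tpi1, Pgam1 and Eno1 have processed copies in the genome, so their counts carry some uncertainty. Among hypoxia targets, Bnip3 (0.98), P4ha1 (0.68) and Ero1l (0.88) had edgeR adjusted p = 0.0768, 0.0855 and 0.100. Ankrd37 was at 16.1, 13.6 and 15 CPM against 26.7 CPM, the isogeneic value being the highest (-0.82, SE 0.18, edgeR adjusted p = 0.0634).

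These calls moved with the libraries used. Without replicate 1 only Hk3 passed (3.34, adjusted p = 0.018) and without replicate 2 Hk3 and Hif1a (2.44, adjusted p = 0.045), while without replicate 3 all 7 passed among 27 higher genes, with 3 lower (Ankrd37, Pfkfb4 and Slc2a3), in a fit that called 51.4% of all genes. Isogeneic C1q macrophages were shallower, with a median of 4800 UMIs against 11315, 9151 and 9537, and 0.111% of them had a Nos2 UMI. In C1q macrophages without a Nos2 UMI, Hk3 (3.17, adjusted p = 0.0094) and Pfkp (1.53, adjusted p = 0.028) passed. That was 2 of 33 genes tested, where 4.38% of all genes passed. The rest of the 7 genes differed by 1.27 to 2.28. Division markers, at least 2 of 8, were found in 19.3%, 10.3% and 13.5% of allogeneic and 17.1% of isogeneic C1q macrophages, and among cells with none of them 10 genes were higher, where 9.63% of all genes passed. Other marker lists moved with the graft too. The 6 monocyte markers summed to 981, 992 and 1021 CPM in allogeneic and 377 CPM in isogeneic C1q macrophages, the 8 T cell markers to 134, 110 and 23.6 CPM against 4.37 CPM, and the 8 monocyte and macrophage lineage markers to 9616, 9582 and 12508 CPM against 19350 CPM. Their part in the 7 higher genes was not tested. Monocytes without Nos2 were not fitted between graft types, and their values, given with no test, were for Hk3 at 219, 213 and 196 CPM in the allografts and 23.2 CPM in the isogeneic heart, and for Hif1a at 453, 470 and 328 CPM and 184 CPM.

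The hexokinase promoters are shown because Hk3 and Hk2 had 2 of the 3 largest differences among the called genes in this comparison, with the same letters in capitals (RefSeq, GRCm38.p6, 300 bases).
Hk2 promoter, chr6:82774405-82774704, minus strand: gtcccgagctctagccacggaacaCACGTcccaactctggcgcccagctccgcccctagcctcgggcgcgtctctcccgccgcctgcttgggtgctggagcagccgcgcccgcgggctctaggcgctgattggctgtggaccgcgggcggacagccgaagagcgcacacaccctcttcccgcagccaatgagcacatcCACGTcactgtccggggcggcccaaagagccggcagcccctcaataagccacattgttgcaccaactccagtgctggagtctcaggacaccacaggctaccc
Hk3 promoter, chr13:55021336-55021635, minus strand: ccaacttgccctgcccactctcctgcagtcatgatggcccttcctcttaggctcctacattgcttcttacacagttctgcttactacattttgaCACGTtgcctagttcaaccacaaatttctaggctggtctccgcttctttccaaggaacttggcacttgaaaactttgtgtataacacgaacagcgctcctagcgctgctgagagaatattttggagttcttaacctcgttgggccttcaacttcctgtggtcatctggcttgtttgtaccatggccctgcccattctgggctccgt
The first holds 2 matches of ACGTG and the second 1, all on the minus strand as printed.

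**Figure D5:**
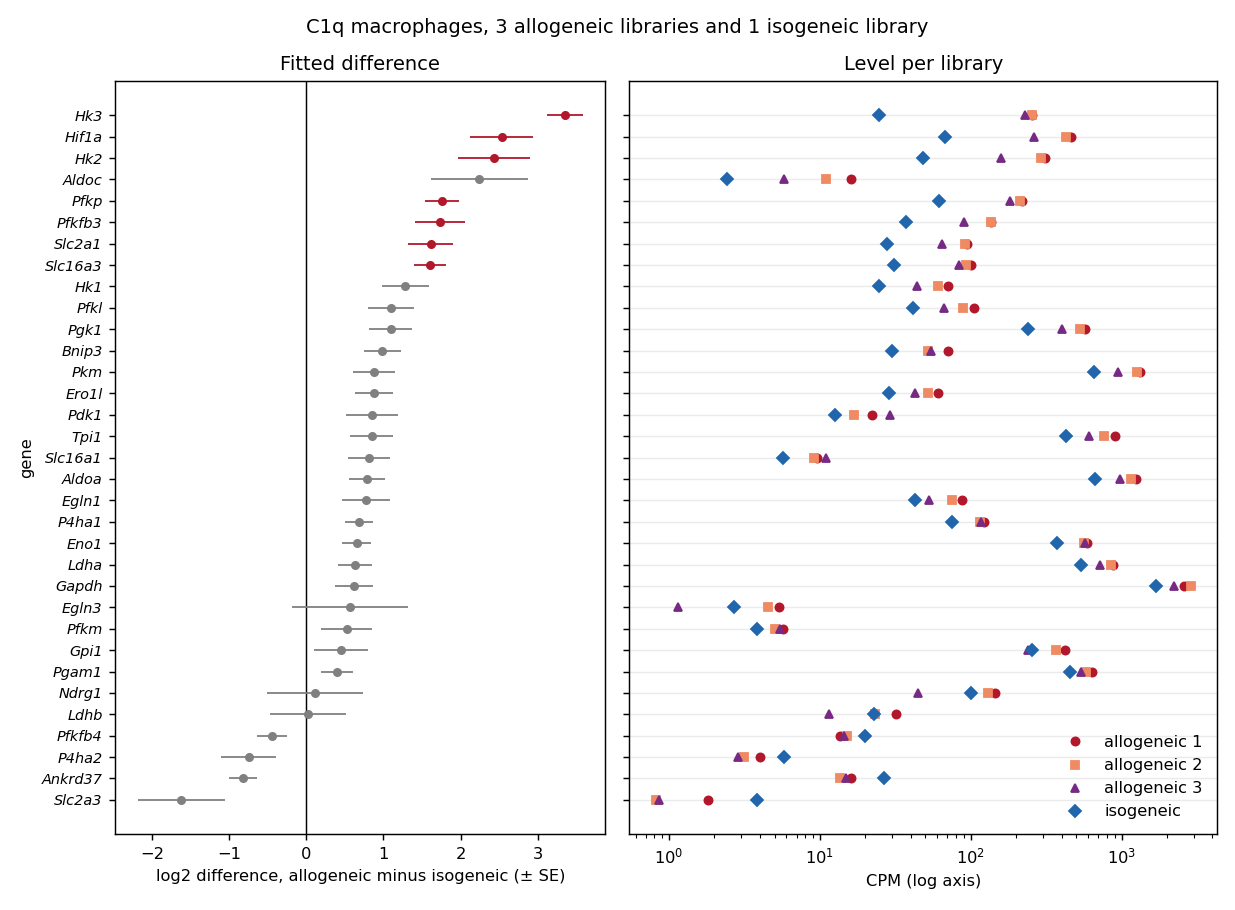
C1q macrophages: left, fitted log2 difference of each of the 33 genes between allogeneic and isogeneic hearts with its SE, red where the edgeR adjusted p is under 0.05; right, CPM in each library on a log axis. The 7 red genes, from Slc16a3 (1.61) to Hk3 (3.36), have all 3 allogeneic points to the right of the isogeneic one.

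Endothelial cells, which line the vessels, showed 1 of 32 tested genes higher in the allografts, against 2.90% of all genes, and none lower, against 1.44%. It was Pfkfb3, at 276, 305 and 455 CPM against 29.4 CPM (3.60, SE 0.39, edgeR adjusted p = 0.0074), the highest level of this gene in any class. The allogeneic values were far from the isogeneic one in each library. The median of the 32 genes was -0.23. The 8 monocyte and macrophage markers in these cells summed to 690, 764 and 144 CPM against 487 CPM, and the 6 monocyte markers to 142, 123 and 204 CPM against 20.6 CPM. At least 2 division markers were found in 5.69%, 2.36% and 2.77% of allogeneic and 11.4% of isogeneic endothelial cells. The part of these markers in the difference was not tested. Without replicate 1 there were 2 calls and without replicate 3 there were 15, of which 9 were higher, in fits that called 3.32% and 38% of all genes, and Pfkfb3 was called with DESeq2 too.

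In fibroblasts 1 of 33 genes was higher, against 2.04% of all genes, and none lower, against 0.475%. This was Hk3, at 8.54, 8.10 and 8.29 CPM against 0.593 CPM (3.72, SE 0.69, edgeR adjusted p = 0.0222), from 9, 13, 174 and 33 UMIs. The myeloid hexokinase moved here beside the monocyte and macrophage markers, all 8 summing to 567, 545 and 853 CPM in allogeneic and 284 CPM in isogeneic fibroblasts, and the 6 monocyte markers to 366, 368 and 2741 CPM against 89.6 CPM. In fibroblasts with at most 2 markers of the first list the difference was 3.81 with an adjusted p = 0.15, and without replicate 3 it was 3.68 with 0.16. Hk2 (313, 241 and 202 CPM against 110 CPM, 1.08, SE 0.34) had an edgeR adjusted p = 0.165. The median of the 33 genes was 0.30, against -0.02 for all genes, and 0.31 against 0.17 with DESeq2 size factors. Leaving out any 1 allogeneic replicate gave 3 calls, Pfkp and Ndrg1 each time, joined by Hk3 without replicate 1 or 2 and by Hk2 without replicate 3, in fits that called 5.16%, 3.94% and 10.6% of all genes.

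The difference of the allogeneic effect between fibroblasts and C1q macrophages was tested directly. It passed for 1 of 33 genes, Slc16a3 (-1.77, SE 0.38, edgeR adjusted p = 0.0435), where 1.71% of all genes passed, 0.409% in this direction. Slc16a3 was at 65.5, 34.9 and 37.4 CPM in allogeneic and 47.6 CPM in isogeneic fibroblasts, so that the groups overlapped there, unlike in C1q macrophages. With doublet calls kept it did not pass (adjusted p = 0.09), and 4 genes passed without replicate 1 and 13 without replicate 3, in fits that called 5.4% and 14.4% of all genes. The median of the 33 differences was -0.41, against 0.06 for all genes, and -0.45 against 0.32 with DESeq2 size factors. For Hif1a and Hk2 the differences were -1.50 (SE 0.46) and -1.27 (SE 0.40), with edgeR adjusted p = 0.152 and 0.16.

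In neutrophils 26 of the 33 genes had enough counts to be tested and 0 passed with edgeR, where 3.71% of all genes did. An unadjusted p under 0.05 was reached by 2, and DESeq2 called 0. Slc2a3 was at 62.5, 91 and 67.3 CPM in the allografts and 236 CPM in the isogeneic heart (-1.46, SE 0.46, edgeR adjusted p = 0.125), the isogeneic value being the highest. Hk3 differed by 1.40 (SE 0.55). Isogeneic neutrophils had a median of 1178 UMIs per cell, against 2329, 2195 and 2237 in the allografts. The median of all genes moved from 0.03 to -0.20 with library totals, and the share of called genes that were higher from 92.5% to 80.2%. Without replicate 3, Slc2a3 (-1.53), Hk3 (1.51), Tpi1 (1.24) and Pgk1 (1.2) passed, where 17.2% of all genes did.

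Genes near the pathway were followed through 8 further lists. Between Nos2 monocytes and C1q macrophages the single call among them was Gbe1, the glycogen branching enzyme, at 31.1, 31.1 and 30.6 CPM against 18.3, 17.1 and 12.9 CPM (0.86, SE 0.17, edgeR adjusted p = 0.0078). The 8 lists had 14, 10, 12, 16, 11, 25, 8 and 15 genes tested there. Of all genes 0.721% were higher and 0.919% lower, so 1 call over all lists is no more than a description of that gene. Of the 16 citric acid cycle genes none passed there, and none of 16 passed between allogeneic and isogeneic C1q macrophages, where their median was 0.21. In dividing against non-dividing T cells 7 of the 16 were higher and none lower, where 10.9% and 7.03% of all genes were (with library totals the share of called genes that were higher was 39.9%), led by Fh1 (0.95), Idh3a (0.81), Sdhd (0.78) and Sdhb (0.70). Txnip, which restrains glucose uptake, was lower in dividing T cells (-1.28, SE 0.27) and the amino acid carrier gene Slc7a5 higher (1.00, SE 0.22), with edgeR adjusted p = 0.00165 and 0.00197.

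In C1q macrophages, 3 of 16 tested genes of the list of other glycolysis genes and carriers were higher in the allografts and 2 lower, where 3.89% and 2.54% of all genes were. Gpd2, the mitochondrial glycerol phosphate dehydrogenase, was at 129, 128 and 65.0 CPM against 11.3 CPM (3.27, SE 0.52, edgeR adjusted p = 0.031). Slc2a6, a glucose carrier of inflammatory myeloid cells, was at 35.7, 40.0 and 65.0 CPM against 8.56 CPM (2.45, SE 0.44, edgeR adjusted p = 0.042). Pgm1 was also higher (1.62, SE 0.28), and the carrier gene Slc2a8 was lower (-1.91, SE 0.30). In the pentose phosphate list G6pdx, its entry enzyme, was higher (1.19, SE 0.19), alone of 10. Epas1, which encodes the HIF2A subunit, was lower, at 3.69, 4.23 and 4.60 CPM against 23.3 CPM (-2.48, SE 0.24, edgeR adjusted p = 0.012), alone of 11 HIF regulators tested. Its groups did not overlap, and it moved opposite to Hif1a. Of 24 tested genes among other reported hypoxia targets none passed, with a median of 0.29. Of the 15 immediate-early and heat shock genes, which respond to tissue digestion, 3 were lower in the allografts, against the same 2.54%, Fosb (-1.45), Ier2 (-1.36) and Fos (-0.95), and their part in the other differences was not tested.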

How the data were processed

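Single-cell libraries were made with a droplet kit that reads the 3′ end of transcripts. The deposited files are matrices of raw UMI counts per gene and cell barcode. Per the file headers they were written by Cell Ranger 6.1.0, whereas version 3.1.0 and build mm10 stand in the submitters' processing notes. The sources used here do not settle this, nor whether counting used strand.

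Barcodes with at least 500 UMIs, at least 300 genes and at most 20% mitochondrial UMIs were kept, and those with the highest Scrublet doublet scores (scanpy 1.11.5) were removed at 0.8% per 1000 barcodes. A cell joined a lineage with at least 3 of its markers and a lead of at least 2 over the next lineage. C1q macrophages had at least 30 UMIs of the C1q genes in 10000, and Nos2 and other monocytes fewer than 15 with at least 2 monocyte markers. Dividing T cells had at least 2 division markers. These limits were set after marker distributions, and the levels of Hk2 and Ldha along C1q, had been seen.

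Raw UMIs were added up for each class of each library, and CPM were computed from the sums. The sums were tested with edgeR 4.0.16 (R 4.3.3; quasi-likelihood F-test, TMM factors, filterByExpr, p adjusted by Benjamini-Hochberg over every gene tested, threshold 0.05). Class contrasts came from 1 fit of 8 classes with library as a block, which gives the pairing by library, and the graft contrasts from 1 fit per class. The difference between fibroblasts and C1q macrophages came from a fit of both with library as a block. Standard errors are approximate, the log2 difference divided by the root of F. DESeq2 1.42.0 was an alternative. Intervals of shares (Wilson, 95%, scipy 1.17.1) cover counting error only. The fits were also run on simulated counts with 1 spread set for all genes. There the fit of C1q macrophages between graft types missed nearly all 2-fold changes and recovered most 4-fold ones. The fit of Nos2 monocytes against C1q macrophages missed many 2-fold changes. A gene that did not pass may thus still differ by about 2-fold.

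The members and lists were chosen with earlier results of these data known. All 33 genes are accounted for in each comparison. By the rule for named genes, values per library are given for genes past the threshold between Nos2 monocytes and C1q macrophages, between dividing and non-dividing T cells, or between graft types in fibroblasts or C1q macrophages, and for genes that show how paralogues differ by class. The others are given by counts and examples. Of the further lists examples are named, taken from the up to 4 called genes per comparison with the largest differences. Genes shown beyond this rule were chosen after their values were seen.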

Additional observations from a re-analysis of the deposited data

Results flagged for a closer look

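The allogeneic effect on Slc16a3, the lactate exporter, differed between fibroblasts and C1q macrophages by a direct test of the difference (-1.77, SE 0.38, edgeR adjusted p = 0.0435). Within C1q macrophages Slc16a3 was higher in 3 of 3 allogeneic libraries, and within fibroblasts in 1 of 3.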

How the results depend on the processing

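For 228 differences, all picked because they passed in the main fit, 2527 values were recomputed under alternatives. Of these values, 2269 kept their direction and their side of the threshold, 258 kept the direction but no longer passed, and none reversed. Picking called differences and refitting mostly the same cells makes a reversal unlikely, so this tally does not measure how firm they are. Differences that did not pass, and values without an adjusted p, are not in it. Counts of called genes moved by more than 1.5 times as follows. Most stand here without the share of all genes called under that alternative, some of which are given above. A move of the list is thus not told apart here from a move of the whole fit. For C1q macrophages between graft types, 6.43% of all genes passed in the main fit and 6.8% with DESeq2. Between graft types, C1q macrophages had 7 called genes, and 2 when cells with a Nos2 UMI were left out, 15 with DESeq2, 12 without a filter on low counts and 1 to 30 when each replicate was left out. Endothelial cells had 1, and 2 with DESeq2, 2 without the filter and 1 to 15 over the replicates. Fibroblasts had 1, and 3 with DESeq2, 4 without the filter, 3 in cells with no division marker, 0 in cells with at most 2 monocyte and macrophage markers and 3 to 3 over the replicates. Neutrophils had 0, and 0 to 4 over the replicates. The difference between fibroblasts and C1q macrophages had 1, and 0 with doublet calls kept, 4 without the filter, 2 with at most 2 of those markers and 1 to 13 over the replicates. Nos2 monocytes against C1q macrophages had 2, and 9 without C1q macrophages that had a Nos2 UMI, 1 with doublet calls kept, 5 without the filter, 23 in the fit of both classes alone and 0 to 9 over the replicates. Against monocytes without Nos2 there were 0, and 2 with DESeq2, 2 without the filter, 21 in the fit of both classes alone and 0 to 9 over the replicates. Dividing against non-dividing T cells had 9, and 15 in the fit of both classes alone and 0 to 16 over the replicates. The other three class contrasts stayed within 1.5 times. Alternatives on Nos2 UMIs in macrophages, depth, division markers and macrophage markers in fibroblasts were chosen after seeing the data. No paired analysis was possible because the groups share only replicate number 2. The lone isogeneic library limits each graft comparison, and few neutrophils limit theirs.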

Other observations

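Outside the 33 genes, neutrophils had 15 of 16 citric acid cycle genes lower than C1q macrophages and none higher, where 28.9% of all genes were lower, with a median of -1.88 against -0.70 for all genes. Fibroblasts had 11 of 25 other reported hypoxia targets higher than C1q macrophages and 8 lower, where 28.6% and 26.9% of all genes were, led by Plod2 (6.73), which modifies collagen, Loxl2 (5.67), which cross-links it, Angptl4 (5.03), an inhibitor of lipoprotein lipase, and Adm (4.37), a vasodilator peptide. Dividing T cells had 7 of the same 25 higher than Nos2 monocytes and 10 lower, where 32.4% and 28.6% of all genes were, with Vegfa, the vascular growth factor, at -5.38, Hmox1, the heme oxygenase, at -4.76 and the carbonic anhydrases Car12 and Car9 at 4.66 and -4.19. These are log2 differences from the edgeR fit of all classes.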
